A study of Homo sapiens with 6 samples.

Results

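The 34 genes described here encode the NF-kB transcription factors, their inhibitors and feedback regulators, and target genes that include adhesion molecules, cytokines and chemokines. They were chosen by symbol as members of the pathway, by a rule with no threshold on measured values but with earlier results of these data known, and 34 of 34 were found among the 20263 gene identifiers of the count table. RNA was sequenced from MV4-11 cells, a line grown from a human acute myeloid leukemia. Its FLT3 gene, which encodes a receptor tyrosine kinase, has an internal tandem duplication, and the labels give its genotype as WT. Cells were exposed for 24 h to VEN+CSA, to VEN alone or to CSA alone, with 2 libraries per group and 6 in all. VEN is venetoclax, an inhibitor of the survival protein BCL2, used at 100 nM. CSA is the usual abbreviation of cyclosporin A, an inhibitor of the phosphatase calcineurin, which the labels do not spell out, and was used at 2.5 µM. The doses within VEN+CSA are not given separately. All 3 groups were drug-treated, so each comparison sets one drug regimen against another and says nothing of a difference from untreated cells. The study asked what the combination does in cells with this FLT3 duplication.

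NF-kB is a family of dimeric transcription factors that inhibitor proteins of the IkB family hold in the cytoplasm of resting cells. In the canonical pathway, receptors for TNF, interleukin-1 and microbial products activate a kinase complex that marks the inhibitors for destruction, and dimers containing RELA or REL enter the nucleus. In the non-canonical pathway the NFKB2 product is processed and acts together with RELB. Many targets, such as NFKBIA and TNFAIP3, encode inhibitors of the pathway itself, and others encode the chemokines by which myeloid cells attract leukocytes.

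Libraries held 26567900 to 30738957 counts. VEN replicate 2 stood apart from the other 5. In it 41.5% of counts came from mitochondrially encoded genes, against 7.41% to 15.2% in the others, and it lay alone on the first principal component (49.3% of the variance). Fold changes that involve the VEN group are therefore given with all libraries. Where they are printed for a gene or a list, they are also given without this one, except for the medians by promoter match. All 8 marker genes of myelomonocytic leukemia cells were present in each library (summed level 1519 to 1724 CPM, counts scaled by library size), FLT3 and LYZ among them. CD3D, CD3E, CD2, EPCAM, KRT5, HBB and HBA1, which mark T cells, epithelium and red cells, had 0 counts throughout. The remaining T cell marker, TRAC, had 5 to 12 counts per library (0.150 to 0.397 CPM, the whole T cell sum), and stromal and B cell lists summed to at most 0.210 and 3.42 CPM. The labels do not say whether the 2 replicates of a group are separate cultures, and p-values here rest on a spread between libraries that may be technical. In bulk RNA, fewer cells of a type and less RNA per cell cannot be told apart.

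Of the 34 genes, 32 passed the filter on low counts and were tested. CXCL3, which encodes a neutrophil attractant, had 0 counts in all 6 libraries, which at 3 counts allows a level of up to 0.0900 to 0.159 CPM. CXCL16, the ligand of CXCR6, had 0 and 2 counts in VEN+CSA libraries, 0 and 0 in VEN libraries and 4 and 6 in CSA libraries, and was not tested. Set on a common scale of CPM per kilobase of exon and averaged over the 6 libraries, TNIP1 had the highest level (20.3), followed by TNFAIP2 (16.4), NFKBIB (15.3), TNF (15.0), NFKBIA (14.2) and ICAM1 (13.1). The subunit genes lay at 12.6 for NFKB1, 11.7 for RELA, 11.2 for NFKB2, 8.22 for RELB and 3.84 for REL. The length used merges the exons of all annotated transcripts of a gene, at 13170 bases for REL and 4484 for NFKB2. A gene with long merged exons lies lower on this scale, and the lengths of the expressed transcripts were not measured. Among the chemokines of the 34 genes CCL2 (6.28) and CXCL8 (4.05) were the highest, and CXCL2 (0.317) and CCL4 (0.265) were the lowest of the tested genes. Neighbours in the middle of this order differed by less than the spread between libraries. NFKB1 over RELA per kilobase, for example, was 1.27 and 0.910 in VEN+CSA libraries, 1.19 and 0.845 in VEN libraries and 1.22 and 1.13 in CSA libraries.

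The promoter sequences printed here are shown because letters that match a kappaB element occur near the start of many of these genes. Of the 34 genes, 26 matched the RefSeq promoter table (GRCh38.p14). The 250 bases before each start were searched on both strands for the kappaB decamer, which is 3 G, a purine, 2 free bases, 2 pyrimidines and 2 C. It was present for 14 of these 26 genes (53.8%), against 11.8% of the 27305 genes in the table. Counted by window, it was present in 17 of 46 windows of these genes (37.0%), against 9.96% of 35116. Capitals mark the matches, on either strand and with overlapping matches joined. Of the NFKB2 windows, the one printed is chr10:102394328-102394577 (plus strand). It has overlapping matches that begin 107 and 106 bases before the start and another nearer to it. The others are chr10:102393860-102394109, which holds 0 matches, and chr10:102395455-102395704, which holds 2. NFKBIA is shown at chr14:35404750-35404999 (minus strand), TNFAIP3 at chr6:137867009-137867258 (plus), BIRC3 at chr11:102317234-102317483 (plus) and CXCL2 at chr4:74099196-74099445 (minus).
NFKB2: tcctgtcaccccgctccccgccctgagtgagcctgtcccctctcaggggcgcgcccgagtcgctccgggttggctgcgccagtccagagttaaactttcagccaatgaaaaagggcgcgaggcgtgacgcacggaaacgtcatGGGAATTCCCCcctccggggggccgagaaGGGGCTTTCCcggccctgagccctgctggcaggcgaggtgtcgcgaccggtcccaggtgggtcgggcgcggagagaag
NFKBIA: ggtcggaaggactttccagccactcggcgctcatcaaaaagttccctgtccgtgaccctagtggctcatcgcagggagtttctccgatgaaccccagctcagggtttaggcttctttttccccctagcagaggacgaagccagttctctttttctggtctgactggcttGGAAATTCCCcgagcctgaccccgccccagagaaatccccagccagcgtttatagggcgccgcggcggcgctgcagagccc
TNFAIP3: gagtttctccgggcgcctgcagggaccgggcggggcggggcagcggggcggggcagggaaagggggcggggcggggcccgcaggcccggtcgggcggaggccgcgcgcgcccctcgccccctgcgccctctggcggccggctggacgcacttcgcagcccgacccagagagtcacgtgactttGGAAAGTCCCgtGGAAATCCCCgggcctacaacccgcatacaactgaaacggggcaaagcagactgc
BIRC3: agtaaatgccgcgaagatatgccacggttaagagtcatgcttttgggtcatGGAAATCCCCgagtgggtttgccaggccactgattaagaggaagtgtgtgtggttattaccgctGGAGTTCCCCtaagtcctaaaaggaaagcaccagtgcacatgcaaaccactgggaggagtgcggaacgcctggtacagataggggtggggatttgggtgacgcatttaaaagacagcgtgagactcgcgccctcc
CXCL2: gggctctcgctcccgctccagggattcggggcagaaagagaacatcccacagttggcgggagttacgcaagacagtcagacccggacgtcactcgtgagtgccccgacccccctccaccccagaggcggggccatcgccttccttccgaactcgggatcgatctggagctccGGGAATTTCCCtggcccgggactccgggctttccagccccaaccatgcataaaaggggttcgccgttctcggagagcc
TNFAIP3 holds a close pair of matches, BIRC3 holds 2 that stand farther apart, and NFKBIA holds 1. The windows of ICAM1, CXCL8, TNF and 9 further members do not hold these letters. A match is a string of letters and not a measured binding site. Between VEN+CSA and CSA the 13 tested genes with a match had a median log2 fold change of 0.15, and the 12 without had 0.21. With all libraries the medians had the opposite order between VEN+CSA and VEN, at 0.25 with a match and 0.21 without. Between VEN and CSA they were -0.07 and -0.02. These differences were not tested.

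With the combination set against VEN alone, most of these genes had higher fitted levels, and none passed the test. Of the 32 tested, 23 (71.9%) had a positive log2 fold change, against 49.1% of all 12690 genes tested. The median log2 fold change was 0.21, against -0.0083 for all genes. By edgeR's quasi-likelihood test with Benjamini-Hochberg adjustment over all genes, 0 of 32 had an adjusted p under 0.05 (0.0% of all genes). DESeq2 also called 0, against 1.36% of all genes as higher and 1.09% as lower, and limma-voom called 0 (0.0% of all genes). At an unadjusted p under 0.05, 6 had higher levels with VEN+CSA (18.8%, against 5.33% of all genes), namely NFKB2, RELB, TNFAIP3, ICAM1, CCL2 and CCL4, and 1 had a lower level, REL (3.12%, against 5.48%). Both VEN+CSA libraries lay above both VEN libraries for 11 genes (34.4%, against 19.2% of all genes) and below them for 3 (9.38%, against 18.9%). Without VEN replicate 2 the count with a positive fold change was 24 and the median 0.29. Without VEN replicate 1, so that replicate 2 alone stood for VEN, 8 genes passed at an adjusted p under 0.05: CCL2, NFKB2, RELB, TNF, TNFAIP2 and TNFAIP3 as higher with VEN+CSA (13.1% of all genes were called so) and REL and IL18 as lower (13.3%). Scaling to library size alone moved the all-gene median log2 fold change to 0.26, and the median of these genes was 0.50.

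Set against CSA alone, the combination again had higher fitted levels of most members, and CCL2 stood out in size. A positive log2 fold change was found for 24 of 32 (75.0%, against 49.7% of all genes), with a median of 0.19, against -0.0020 for all genes. None had an adjusted p under 0.05 by edgeR's test (0.0% of all genes), and limma-voom called 0 (0.0% of all genes as higher and 0.00788% as lower). DESeq2 called 1, CCL2, as higher (0.244% of all genes), and 0 as lower (0.197%). At an unadjusted p under 0.05, CCL2, CXCL8 and ICAM1 were higher (9.38%, against 1.95% of all genes) and 0 were lower (1.69% of all genes). Both VEN+CSA libraries lay above both CSA libraries for 15 genes (46.9%, against 23.5% of all genes) and below them for BIRC2 and CCL3 (6.25%, against 23.7%). The median was 0.12 without CSA replicate 1, where 21 genes had a positive log2 fold change. Both comparisons use the same VEN+CSA libraries, and each of them shares the libraries of a single drug with the comparison of VEN against CSA, so a gene named in several of them is not an independent observation each time.

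VEN set against CSA gave no common direction. Of the 32 genes 15 had a positive log2 fold change (46.9%, against 49.8% of all genes), and the median was -0.07, against -0.0032 for all genes. By edgeR's test 0 had an adjusted p under 0.05 (0.0% of all genes). DESeq2 also called 0 (0.197% of all genes as higher and 0.299% as lower), and so did limma-voom (0.0%). CCL2 and REL were higher with VEN at an unadjusted p under 0.05 (6.25%, against 2.34% of all genes), and 0 were lower (2.46% of all genes). Both VEN libraries lay above both CSA libraries for CCL2, CXCL8, REL and TNFAIP8 (12.5%, against 20.8% of all genes). They lay below them for CCL4, NFKB1, NFKB2, RELB, TNF, TNFAIP2 and TNFAIP3 (21.9%, against 19.9%). Without VEN replicate 2, 11 genes had a positive log2 fold change and the median was -0.06. Without VEN replicate 1, BIRC3, IL18, REL and TNFAIP8 passed as higher (16.9% of all genes) and NFKB2, RELB, TNF and TNFAIP2 as lower (16.9%). Over the 3 groups, the mean level was highest in VEN+CSA for 22 of the 32 genes, against 28.7% of all genes tested.

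**Figure D1:**
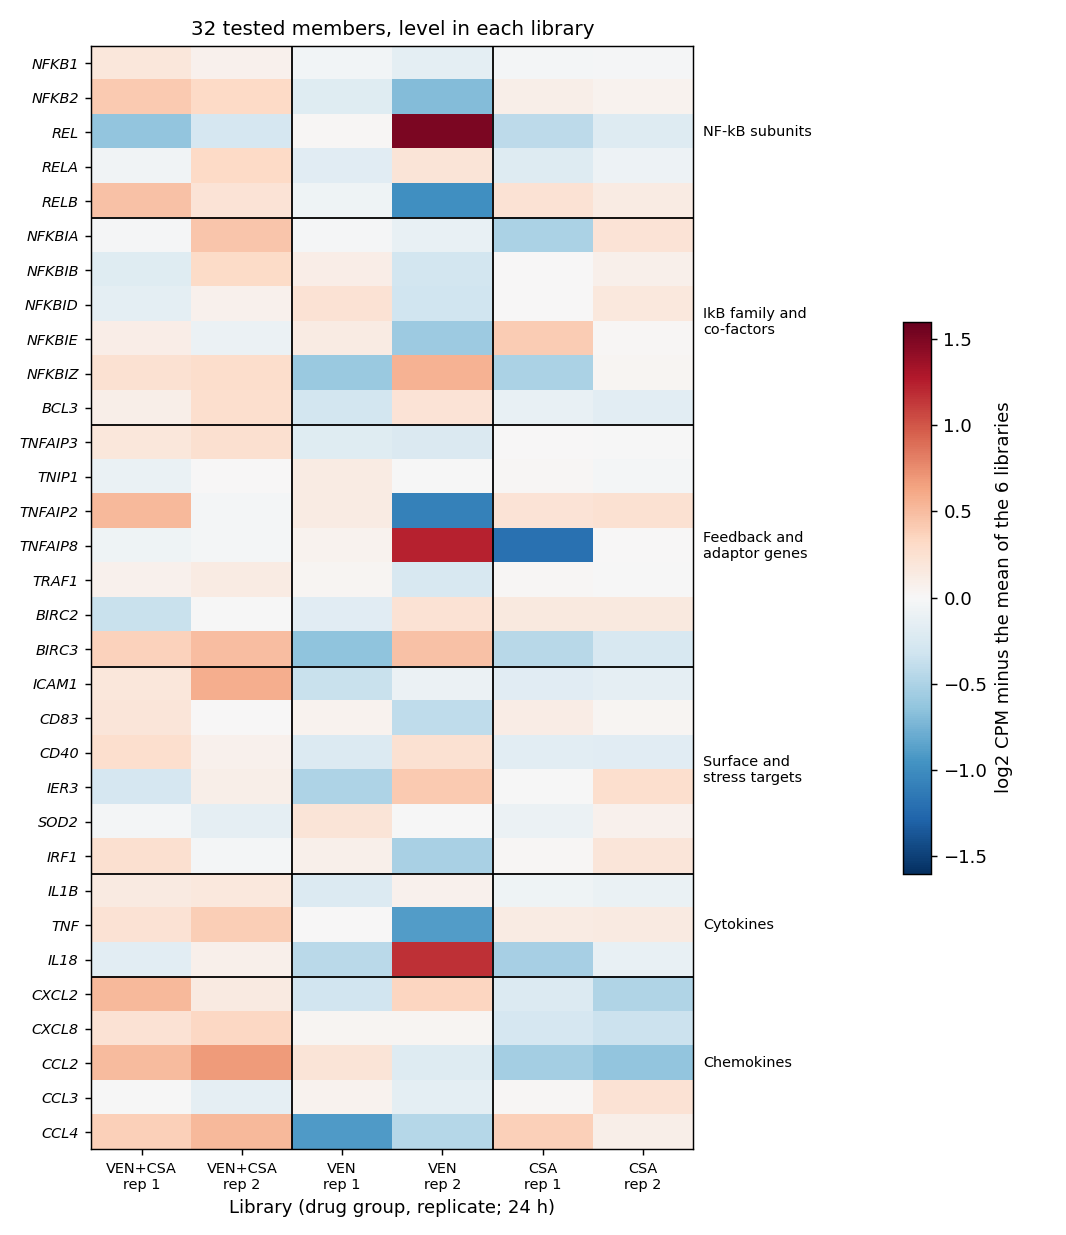
Level of each of the 32 tested genes in each library (columns, by drug group and replicate), as log2 CPM minus that gene's mean over the 6 libraries (colour; red above, blue below); genes are rows, grouped by role. The most intense cells are in VEN replicate 2, where REL, TNFAIP8 and IL18 are high and TNFAIP2, RELB and TNF are low, and CCL2 is above its mean in both VEN+CSA libraries and below it in both CSA libraries.

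**Figure D2:**
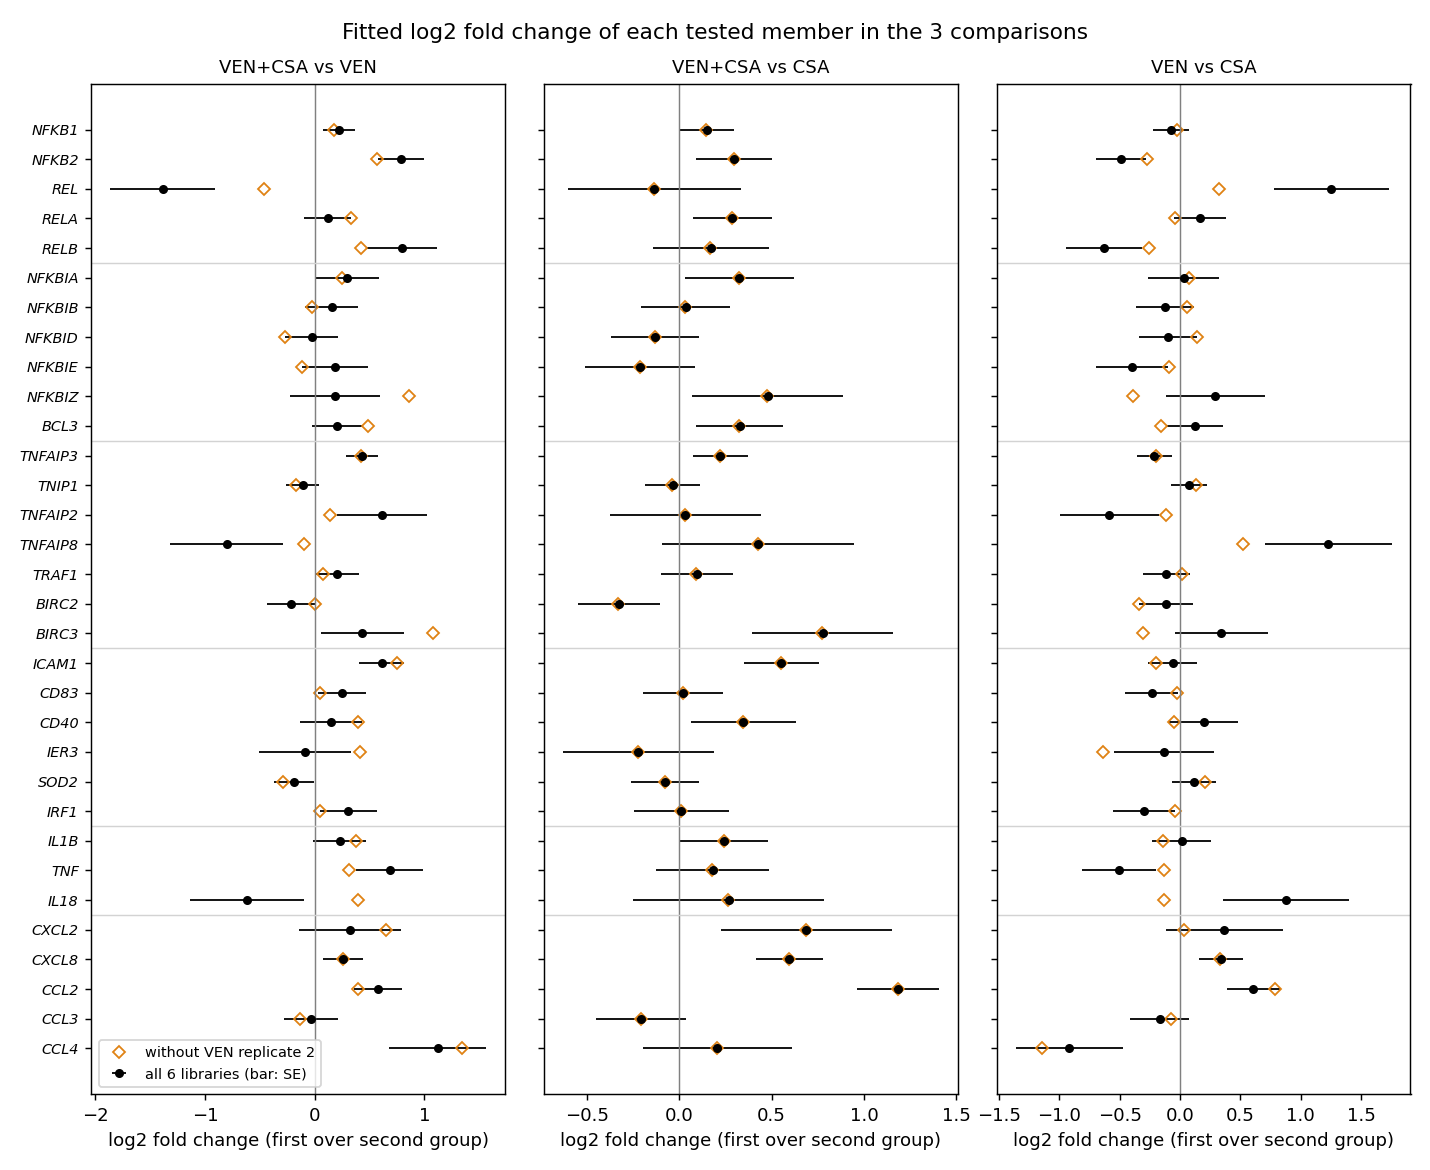
Fitted log2 fold change (horizontal axis, first named group over the second) of each tested gene in the 3 comparisons. Black points use all 6 libraries with bars of 1 SE, and open diamonds leave out VEN replicate 2; between VEN+CSA and VEN, REL has -1.39 with all libraries and -0.46 without that one, and between VEN+CSA and CSA, CCL2 has 1.19 and 1.18.

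Among the subunits, NFKB2 (chr10:102394110-102402529, GRCh38), the precursor of the non-canonical pathway, had 64.7 and 60.8 CPM in VEN+CSA libraries, 42.5 and 30.1 CPM in VEN libraries and 51.8 and 50.3 CPM in CSA libraries. Its 3 groups did not overlap, with VEN+CSA highest and VEN lowest. The log2 fold change of VEN+CSA over VEN was 0.79 (SE 0.21, adjusted p = 0.335), the smallest adjusted p of any of the 32 genes in edgeR's test of the 3 comparisons. Without VEN replicate 2 it was 0.57 (SE 0.12), and across all alternatives tried it ranged from 0.56 to 1.06. The 1.06 was without VEN replicate 1, where replicate 2 alone stood for VEN. That fit called NFKB2 along with many other genes, as stated above. A call with 1 library of VEN left does not add to the result with all libraries. DESeq2 without VEN replicate 2 also called it, at 0.56 (2.14% of all genes were then called as higher). RELB (chr19:45001430-45038198), the partner of the NFKB2 product, had 33.0 and 27.7 CPM with VEN+CSA, 22.7 and 12.1 CPM with VEN and 27.9 and 26.1 CPM with CSA. VEN was thus below both other groups, while VEN+CSA and CSA overlapped. The log2 fold change over VEN was 0.80 (SE 0.32, adjusted p = 0.456), and 0.42 without VEN replicate 2. NFKB2 over RELB per kilobase stayed within 1.26 to 1.68 in the 6 libraries.

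The canonical subunits differed less or depended on 1 library. NFKB1, the precursor of the DNA-binding partner of RELA, had 88.7 and 82.1 CPM with VEN+CSA, 75.9 and 70.5 CPM with VEN and 76.5 and 77.6 CPM with CSA, a log2 fold change of 0.22 (SE 0.15; 0.17 without VEN replicate 2) over VEN and 0.15 (SE 0.15) over CSA. RELA, the main activating subunit, had 60.9 and 78.8 CPM with VEN+CSA, 55.8 and 72.9 CPM with VEN and 54.7 and 59.7 CPM with CSA, and its replicates spread about as widely as its groups. REL, which encodes the c-Rel subunit of blood cells, had 28.2 and 36.1 CPM with VEN+CSA, 44.3 and 124 CPM with VEN and 32.7 and 37.9 CPM with CSA. VEN replicate 2 was far above the other 5 libraries. REL had a log2 fold change of -1.39 (SE 0.48, adjusted p = 0.418) between VEN+CSA and VEN and -0.46 without VEN replicate 2. Between VEN and CSA it had 1.25 (SE 0.48, adjusted p = 0.633) and 0.32 without that library.

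Among the IkB family, NFKBIA, the classical inhibitor that NF-kB itself induces, had 32.5 and 44.9 CPM with VEN+CSA, 32.6 and 30.4 CPM with VEN and 23.3 and 38.4 CPM with CSA. The 3 groups overlapped, and its fold changes of 0.30 over VEN and 0.33 over CSA had an SE of 0.29 each, the first being 0.25 without VEN replicate 2. NFKBIB and NFKBIE, further cytoplasmic inhibitors, and NFKBID, a nuclear member of the family, also overlapped in every comparison, with log2 fold changes from -0.40 to 0.19. The -0.40 was NFKBIE in VEN over CSA. Without VEN replicate 2, VEN+CSA over VEN was -0.02 for NFKBIB, -0.12 for NFKBIE and -0.27 for NFKBID. VEN over CSA was then 0.06 for NFKBIB, -0.09 for NFKBIE and 0.14 for NFKBID. NFKBIZ and BCL3, nuclear co-factors that bind NF-kB dimers at promoters, were higher in both VEN+CSA libraries than in both CSA libraries. NFKBIZ had 7.77 and 7.96 CPM with VEN+CSA, 4.34 and 9.60 CPM with VEN and 4.59 and 6.69 CPM with CSA, so its VEN replicates were its lowest and its highest library. BCL3 had 12.4 and 14.0 CPM with VEN+CSA, 9.42 and 13.4 CPM with VEN and 10.6 and 10.3 CPM with CSA. Over CSA the log2 fold changes were 0.48 (SE 0.41) for NFKBIZ and 0.33 (SE 0.24) for BCL3, at an adjusted p of 1.0 each. NFKBIB shares exons with SIRT2 on the opposite strand, and no source used here says whether reads were counted by strand, so reads of that pair may be mixed.

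Among feedback and adaptor genes, TNFAIP3 (chr6:137867188-137883312), a ubiquitin-editing enzyme that restrains NF-kB signalling, had close replicates. It had 55.8 and 58.5 CPM with VEN+CSA, 42.8 and 41.8 CPM with VEN and 49.2 and 48.7 CPM with CSA. As for NFKB2, the 3 groups did not overlap, and the order was the same. Its log2 fold change was 0.43 over VEN (SE 0.15, adjusted p = 0.415; 0.42 without VEN replicate 2) and 0.22 over CSA (SE 0.15, adjusted p = 1.0). TNIP1, which encodes a binding partner of the TNFAIP3 protein, had 109 and 118 CPM with VEN+CSA, 129 and 117 CPM with VEN and 119 and 115 CPM with CSA, with all 3 groups overlapping.

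BIRC3 (chr11:102317450-102339403), a ubiquitin ligase of TNF receptor complexes, had 5.28 and 5.74 CPM with VEN+CSA, 2.61 and 5.62 CPM with VEN and 3.01 and 3.42 CPM with CSA. Both VEN+CSA libraries lay above both CSA libraries, at a log2 fold change of 0.78 (SE 0.38, adjusted p = 1.0). Over VEN it had 0.43 (SE 0.38), 1.08 without VEN replicate 2 and -0.03 without VEN replicate 1. Its paralog BIRC2 differed from it: it had 17.8 and 22.6 CPM with VEN+CSA, 20.2 and 26.8 CPM with VEN and 25.5 and 25.3 CPM with CSA, the 2 VEN+CSA libraries lying below both CSA libraries (-0.33, SE 0.22). BIRC3 over BIRC2 per kilobase was 0.179 and 0.153 with VEN+CSA, 0.0780 and 0.127 with VEN and 0.0712 and 0.0815 with CSA, so the ratio was highest in the 2 VEN+CSA libraries. That ratio was chosen after its values were seen. TRAF1, an adaptor of TNF receptors, differed little, at 11.8 and 12.4 CPM with VEN+CSA, 11.5 and 9.44 CPM with VEN and 11.4 and 11.3 CPM with CSA.

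The TNF-induced genes TNFAIP2 and TNFAIP8, the second of them an apoptosis regulator, varied widely between replicates. TNFAIP2 had 112 and 76.5 CPM with VEN+CSA, 85.4 and 36.9 CPM with VEN and 91.2 and 92.8 CPM with CSA. Its log2 fold change over VEN was 0.62 (SE 0.41), and 0.14 without VEN replicate 2. TNFAIP8 had 10.4 and 10.7 CPM with VEN+CSA, 11.3 and 25.6 CPM with VEN and 4.76 and 10.9 CPM with CSA. A more than 2-fold gap within both VEN and CSA was seen for TNFAIP8 alone among the 32 genes.

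Among surface and stress targets, ICAM1 (chr19:10270835-10286615), an adhesion molecule that binds leukocyte integrins, had 53.5 and 71.0 CPM with VEN+CSA, 37.1 and 44.4 CPM with VEN and 41.8 and 43.0 CPM with CSA. Both VEN+CSA libraries were above the other 4, which overlapped. The log2 fold change was 0.61 over VEN (SE 0.20, adjusted p = 0.407; 0.75 without VEN replicate 2) and 0.55 over CSA (SE 0.20, adjusted p = 1.0). Without VEN+CSA replicate 2, the higher of the pair, these were 0.40 and 0.34. CD40, a costimulatory receptor of the TNF receptor family, was above CSA in both VEN+CSA libraries, at 2.37 and 2.07 CPM, against 1.75 and 1.74 CPM with CSA, and VEN spanned them at 1.69 and 2.33 CPM (0.35 over CSA, SE 0.28). SOD2, the mitochondrial superoxide dismutase, had 19.3 and 17.9 CPM with VEN+CSA, 22.8 and 19.6 CPM with VEN and 18.5 and 20.7 CPM with CSA, its VEN+CSA libraries being below both VEN libraries (-0.19, SE 0.18; -0.29 without VEN replicate 2). CD83, a maturation marker of antigen-presenting cells, IRF1, an interferon-response factor, and IER3, an early stress-response gene, overlapped in every comparison. SOD2 shares exons with WTAP, and IRF1 with IRF1-AS1, each on the opposite strand, and their reads may be mixed in the same way. Another annotated gene of the name SOD2 shares exons with it on the same strand and has no counts of its own here. The SOD2 values may therefore not hold all reads of the gene.

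Of the cytokines, TNF had 28.4 and 31.8 CPM with VEN+CSA, 24.3 and 13.1 CPM with VEN and 26.4 and 26.7 CPM with CSA. The order of groups was that of NFKB2 and TNFAIP3, and VEN replicate 2 had the lowest level of the 6 libraries. TNF had a log2 fold change of 0.68 over VEN (SE 0.31, adjusted p = 0.503), 0.31 without VEN replicate 2, and 0.18 over CSA (SE 0.31). IL1B, the secreted interleukin-1 of myeloid cells, stood at 2.79 and 2.84 CPM with VEN+CSA, 2.17 and 2.65 CPM with VEN and 2.41 and 2.34 CPM with CSA, both VEN+CSA libraries being highest by a small step (0.23 over VEN and 0.24 over CSA, SE 0.24 each; 0.38 over VEN without VEN replicate 2). IL18, processed by the same inflammasome, had 6.36 and 7.56 CPM with VEN+CSA, 5.29 and 16.1 CPM with VEN and 4.96 and 6.60 CPM with CSA. VEN replicate 2 set its direction over VEN, which was -0.61 (SE 0.52) with all libraries and 0.40 without that one.

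Among the chemokines, CCL2 (chr17:34255218-34257203), which attracts monocytes through the receptor CCR2, separated the 3 groups. It had 16.6 and 18.8 CPM with VEN+CSA, 13.5 and 10.2 CPM with VEN and 8.03 and 7.56 CPM with CSA. The libraries fell in the order VEN+CSA, VEN, CSA with no overlap. Over CSA the combination had a log2 fold change of 1.19 (SE 0.22, a 2.27-fold higher level, adjusted p = 0.708 by edgeR's test). That adjusted p was 0.0972 without VEN replicate 2, and DESeq2 gave 0.00502. Across the alternatives the value ranged from 1.10 to 1.27, with 2 alternatives calling it, both of them DESeq2, at a smallest adjusted p of 2.1e-05 without VEN replicate 2, where 0.981% of all genes were called as higher. Over VEN it had 0.58 (SE 0.22, adjusted p = 0.439; 0.40 without VEN replicate 2), and VEN over CSA had 0.61 (SE 0.22, adjusted p = 0.633; 0.79 without VEN replicate 2).

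CXCL8 (chr4:73740506-73743716), the main neutrophil attractant of this set, followed the same order at a smaller size. It had 10.7 and 11.4 CPM with VEN+CSA, 9.25 and 9.23 CPM with VEN and 7.50 and 7.11 CPM with CSA, with no overlap between groups. The log2 fold change was 0.60 over CSA (SE 0.18, adjusted p = 1.0) and 0.26 over VEN (SE 0.18, adjusted p = 0.622; 0.26 without VEN replicate 2). VEN over CSA had 0.34 (SE 0.18; 0.33 without VEN replicate 2), which was 0.0074 once each library's trend with GC content was removed, and CXCL8 had the lowest GC content of the 32 genes (33.4% of its longest transcript). CXCL2, another neutrophil attractant, was detected at 0.660 and 0.509 CPM with VEN+CSA, 0.373 and 0.583 CPM with VEN and 0.397 and 0.330 CPM with CSA, from 11 to 22 counts per library.

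CCL3 and CCL4, inflammatory chemokines of macrophages, did not follow CCL2. CCL3 had 2.52 and 2.29 CPM with VEN+CSA, 2.64 and 2.28 CPM with VEN and 2.58 and 2.97 CPM with CSA, and its VEN+CSA libraries were below both CSA libraries (-0.21, SE 0.24). CCL4 had 0.660 and 0.727 CPM with VEN+CSA, 0.271 and 0.371 CPM with VEN and 0.661 and 0.540 CPM with CSA, so VEN alone was low. CCL4 had a log2 fold change over VEN of 1.12 (SE 0.44, adjusted p = 0.447; 1.34 without VEN replicate 2), resting on 22 and 20 counts with VEN+CSA and 8 and 7 with VEN. Counts of 20 or less were even numbers in 64.8% to 66.7% of cases per library, against 49.0% to 51.0% of counts of 100 or more, so a low count may not be 1 independent read pair. Reads could be shared with near-identical copies, of which CCL3L3 had 0 to 6 and CCL4L2 0 to 8 counts per library.

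**Figure D3:**
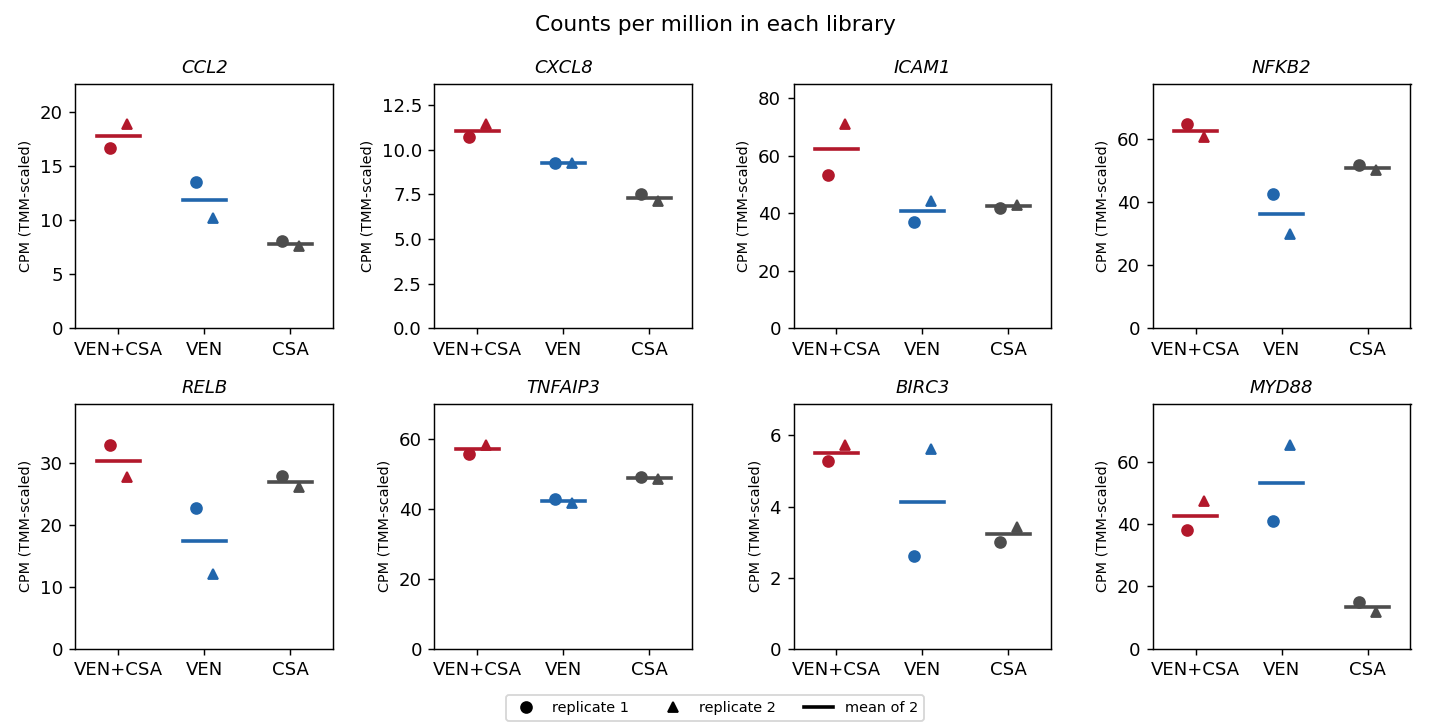
CPM (vertical axis, from 0, scaled by trimmed mean of M-values) of 7 of the 32 genes and of MYD88 in each library, by group; circles are replicate 1, triangles replicate 2 and lines the mean of 2. CCL2 and CXCL8 descend in 3 separate steps, NFKB2 and TNFAIP3 are lowest with VEN, BIRC3 is split within VEN, and MYD88 is at 14.9 and 11.7 CPM with CSA, below the other 4 libraries.

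Markers of mature monocytes were summed in the same libraries, with no test of the sums. The summed level of the 8 mature monocyte and macrophage markers was 98.3 and 131 CPM with VEN+CSA, 76.5 and 118 CPM with VEN and 76.3 and 74.4 CPM with CSA. Most of it was CD68, a lysosomal protein, at 91.0 and 126 CPM with VEN+CSA, 70.3 and 113 CPM with VEN and 70.4 and 68.9 CPM with CSA. CD14, a defining monocyte marker, was at or under 0.407 CPM in every library, and C1QB was at 0. The part of these markers in the chemokine and ICAM1 values was not tested.

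Beyond the 34 genes, 3 further lists of the pathway were examined. TNFRSF1A and TNFRSF1B are in both the signalling list and the list of receptors and antagonists. Of 28 upstream signalling genes, such as receptors, adaptors and kinases, 27 were tested and TRAF5 was at 0. Positive log2 fold changes numbered 15 for VEN+CSA over VEN, 12 for VEN+CSA over CSA and 11 for VEN over CSA, with medians of 0.02, -0.02 and -0.05. Those are 55.6%, 44.4% and 40.7% of the list, against 49.1%, 49.7% and 49.8% of all genes. When VEN replicate 2 was left out, 14 were positive over VEN (median 0.02) and 12 in VEN over CSA (median -0.06). None passed edgeR's adjusted test in any comparison. MYD88 (chr3:38138478-38143022), the adaptor of Toll-like and interleukin-1 receptors, had 38.1 and 47.5 CPM with VEN+CSA, 41.0 and 65.7 CPM with VEN and 14.9 and 11.7 CPM with CSA. Both groups given VEN were thus well above CSA, and they overlapped with each other. The log2 fold change was 1.68 for VEN+CSA over CSA (SE 0.29, adjusted p = 0.620) and 2.00 for VEN over CSA (SE 0.30, adjusted p = 0.489). DESeq2 called both, at an adjusted p of 0.000165 and 1.3e-06, where it called 0.244% and 0.197% of all genes as higher. Without VEN replicate 2 the edgeR values were 1.68 and 1.62, and VEN over CSA had 2.3 without VEN replicate 1.

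Of 26 further NF-kB target genes 19 were tested. Positive log2 fold changes were found for 16 of 19 in VEN+CSA over VEN, for 16 of 19 over CSA and for 7 of 19 in VEN over CSA, with medians of 0.23, 0.19 and -0.04. Those are 84.2%, 84.2% and 36.8% of the list, against the same shares of all genes as above. With VEN replicate 2 left out, 20 passed the filter, of which 15 were positive over VEN (median 0.32), 16 over CSA (median 0.22) and 8 in VEN over CSA (median -0.05). None passed the adjusted test of edgeR in the 3 comparisons. MMP9, a matrix-degrading protease, had 3.51 and 3.31 CPM with VEN+CSA, 1.59 and 1.17 CPM with VEN and 1.55 and 1.83 CPM with CSA. Its VEN+CSA libraries were above all others, at 1.29 over VEN (SE 0.28, adjusted p = 0.254) and 1.01 over CSA (SE 0.28, adjusted p = 1.0). Over VEN it had 1.10 without VEN replicate 2 and 1.55 without VEN replicate 1. CCL5, a chemokine with a higher level per kilobase (59.5 CPM) than any of the 34 genes, had 102 and 102 CPM with VEN+CSA, 46.4 and 144 CPM with VEN and 89.4 and 55.7 CPM with CSA. Its VEN replicates were its lowest and highest libraries, and its log2 fold change over VEN was 0.10 (SE 0.53) with all libraries and 1.14 (adjusted p = 0.206) without VEN replicate 2. CCL5 was named after its values were seen. IL6, IL1A, CCL20, CCL22, CXCL1, LTA and VCAM1 were too low to test.

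Of 13 receptors and antagonists of these cytokines and chemokines 8 were tested, and again none passed the adjusted test. The median log2 fold change was -0.08 for VEN+CSA over VEN, -0.01 over CSA and 0.36 for VEN over CSA. The value was -0.19 without VEN replicate 2 for VEN+CSA over VEN and 0.12 for VEN over CSA. CCR2, the receptor of CCL2, had 28.7 and 19.7 CPM with VEN+CSA, 38.2 and 29.8 CPM with VEN and 37.7 and 31.2 CPM with CSA, so its 2 VEN+CSA libraries were below the other 4 (-0.49 over VEN and -0.51 over CSA, SE 0.26 and 0.25; -0.65 over VEN without VEN replicate 2). IL1RN, the interleukin-1 receptor antagonist, had 3.78 and 4.83 CPM with VEN+CSA, 9.56 and 6.90 CPM with VEN and 4.76 and 5.19 CPM with CSA, so VEN alone was high (-0.94 for VEN+CSA over VEN, SE 0.26, adjusted p = 0.351; -1.15 without VEN replicate 2). CCR2 and IL1RN were named after their values were seen.

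The replicates of these genes agreed closely in VEN+CSA and CSA and poorly in VEN. Of the 32 genes, 0 differed more than 2-fold between VEN+CSA replicates, 6 between VEN replicates and 1 between CSA replicates. The VEN replicate differences tended to fall with GC content. Across the 32 genes the log2 difference of replicate 2 minus replicate 1 had a Pearson correlation with transcript GC content of -0.55 in VEN, against -0.10 in VEN+CSA and -0.25 in CSA. Over all 12680 genes with a GC value the correlation was -0.50 in VEN, so the members followed the whole library. These points share a library and are given as a description. REL, IL18, TNFAIP8 and BIRC3, with GC content of 34.8% to 40.6%, were higher in VEN replicate 2, and RELB, NFKB2 and TNFAIP2, at 62.0% to 65.4%, were lower. Other genes did not follow the trend. CXCL8, with the lowest GC content, had a difference of -0.0036 in VEN, and BCL3, with the highest (67.4%), and IER3 (58.5%) were higher in VEN replicate 2, by 0.51 and 0.86. Removing the trend left 0 of 32 genes called in each comparison. For VEN+CSA over VEN 0.213% of all genes were then called as higher and 0.0946% as lower, and for the other comparisons 0.0%. The medians were then 0.18 for VEN+CSA over VEN, 0.22 for VEN+CSA over CSA and 0.044 for VEN over CSA. After it NFKB2 had 0.58, RELB 0.62, TNFAIP3 0.41, ICAM1 0.41, CCL2 0.64, CCL4 1.12 and REL -1.09 over VEN. By edgeR's test the unadjusted p was then 0.171 for ICAM1 and 0.0523 for CCL2, and under 0.05 for the others. Over CSA, CCL2 had 1.11 (unadjusted p = 0.00646), ICAM1 0.62 (0.0591) and CXCL8 0.405 (0.171). CXCL8 had 0.60 over CSA before the removal.

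**Figure D4:**
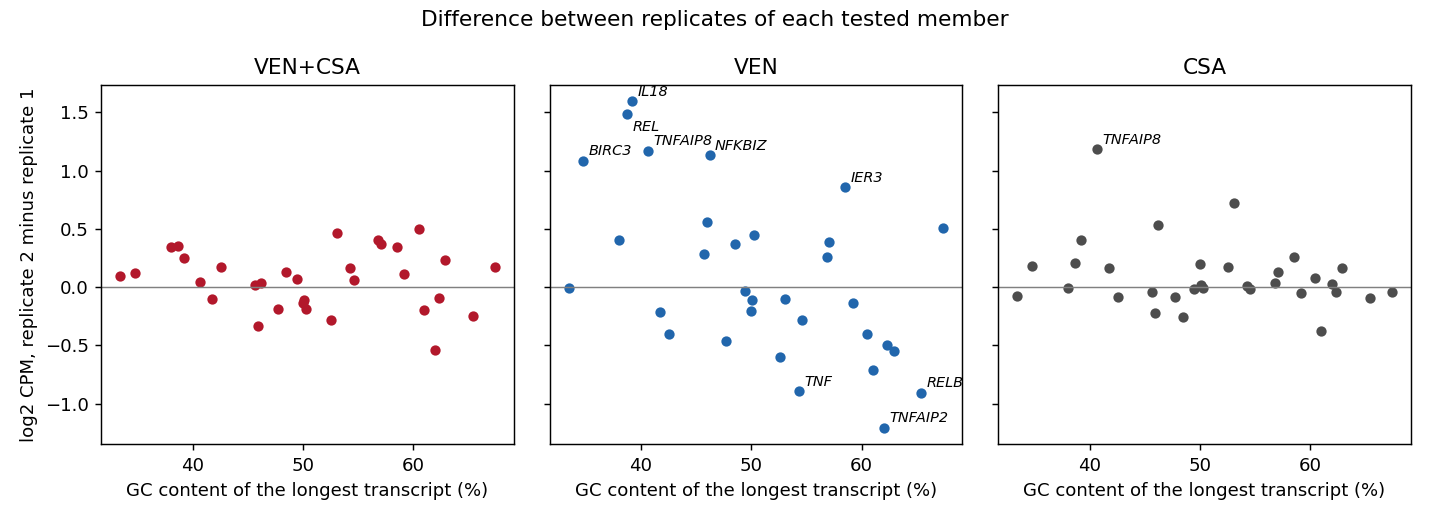
Log2 CPM of replicate 2 minus replicate 1 (vertical axis) against the GC content of the longest transcript in percent (horizontal axis) for the 32 tested genes, one panel per drug group; genes with the widest differences are named. In VEN the points fall with GC content (Pearson correlation -0.55), and in VEN+CSA and CSA most lie close to 0.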

How the data were processed

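RNA-seq counts of MV4-11 cells were analysed, 2 libraries for each of 3 drug groups, with groups read from the sample titles. Per the labels' protocols, RNA was isolated with Trizol, and the KAPA RNA HyperPrep Kit was used for paired-end libraries. The submitters' processing notes name STAR, RSEM, DESeq2 and build hg38, without versions or roles. The deposited table gives unnormalized whole-number counts for Ensembl genes. A further 2 columns, to which the labels used here tie no sample, were not used, and a treatment entry that names gavage was set aside.

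Of 20263 identifiers, 20148 were paired with a symbol and 20224 with GENCODE release 29 (GRCh38), the source of coordinates, exon lengths and GC content. The main test was edgeR 4.0.16 (R 4.3.3) on the 12690 genes that passed filterByExpr, with TMM scaling (trimmed mean of M-values). It was a two-sided robust quasi-likelihood test in 1 fit by group with 3 residual degrees of freedom. P-values were adjusted by Benjamini-Hochberg over all tested genes, at a threshold of 0.05. SE is the standard error of a fitted log2 fold change, and CPM is scaled by TMM. Limits at a count of 0 use 3 counts per library and cover counting error only. The main edgeR test was also run on simulated counts, with an outcome not given here, and DESeq2 and limma-voom were not.

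The 34 genes, the pathway and marker lists and the rule for naming genes were chosen with earlier results of these data known. All 34 were described, and from the pathway lists the rule took genes with an unadjusted p under 0.01. Alternatives were DESeq2 1.42.0, limma-voom (limma 3.58.1), other scalings and filters, a replicate block, fits restricted to the 4 libraries of a comparison, and leaving out each library. Removal of each library's GC trend (loess, span 0.3) was added after seeing the data. A library left alone in its group was taken to vary as the other groups do. Replicates differed by more than counting error (chi-square divided by its degrees of freedom 31.5 to 846) and were counted as separate libraries.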

Additional observations from a re-analysis of the deposited data

How the results depend on the processing

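Called genes numbered 0 of 32 in each comparison with edgeR, limma-voom, other scalings and filters, GC trend removal and fits of only the 4 libraries compared, except that the filter of at least 1 CPM in 2 libraries kept and tested 30. DESeq2 called 1 in VEN+CSA against CSA, and DESeq2 without VEN replicate 2 called 1 there and 1 in VEN+CSA against VEN. Leaving out 1 library gave 0 to 8 calls in VEN+CSA against VEN and 0 to 8 in VEN against CSA, the 8 being without VEN replicate 1. In that fit replicate 2 alone stood for VEN, and large shares of all genes were called, as given above. The 8 calls are therefore not read as a property of these genes. The shares of all genes called as higher by DESeq2 are also given above. The median log2 fold change of VEN+CSA over VEN was 0.50 with library size scaling and 0.28 by DESeq2 without VEN replicate 2, and 0.21 to 0.29 when 1 library was left out. Over CSA it was 0.15 with library size scaling and 0.12 to 0.25 when 1 library was left out. For VEN over CSA it was -0.36 with library size scaling, 0.044 with the GC trend removed and -0.10 to -0.00020 when 1 library was left out. Library size scaling moved the median of all genes to 0.26, -0.04 and -0.31 in the 3 comparisons, and the cause of the other shifts was not tested. Over every alternative, the sign of the fold change was the same for 17, 24 and 15 of the 32 genes in the 3 comparisons. Genes called without VEN replicate 1 could change sign elsewhere: IL18 over VEN had -1.21 there and 0.40 without VEN replicate 2, and in VEN over CSA IL18 had 1.48 and -0.14 and BIRC3 0.80 and -0.31.

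With the replicate number as a block, 0 of the 32 genes were called in each comparison, and medians were 0.23, 0.20 and -0.07. Same-numbered replicates had correlated deviations (0.19 for CSA and VEN, 0.16 for CSA and VEN+CSA, 0.25 for VEN and VEN+CSA), but with 2 numbers only and no label that ties them, the pairing was not established. Depth limits CXCL2, CCL4 and IER3, whose counts were under 50 in each library.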
